A study of Homo sapiens with 40 samples.

Results

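The genes described here are 39 interferon-stimulated genes, chosen by symbol from a list of well-known responders to interferon and found among the 60708 genes of each deposited count table. All 39 were present in the tables. Interferons are secreted signalling proteins that cells release on viral infection. Type I and type III interferons bind their receptors and activate the kinases JAK1 and TYK2, which phosphorylate STAT2 and other STAT proteins, and STAT2 acts with IRF9 in the ISGF3 complex. ISGF3 binds a short DNA element, the interferon-stimulated response element, in the promoters of its target genes, while IRF1 and IRF7 are further transcription factors that act on overlapping elements. Many epithelial and carcinoma cell lines keep a basal level of these genes without added interferon, and interferon was not among the treatments of the study.

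Total RNA was sequenced from 24 libraries in 8 groups of 3, each labelled as a biological replicate. MI cells are MCF-10A, an immortalized, non-tumorigenic human breast epithelial line, and MII cells are the MCF-10A derivative transformed with HRAS, MCF-10AneoT. Both were grown as spheres on ultra-low attachment plates and were either left untreated (MI Ctrl and MII Ctrl) or stimulated with TGFβ1 at 2.5 ng/ml for 16 h (MI TGFβ and MII TGFβ). MDA-MB-231, a triple-negative breast carcinoma line, was grown as a monolayer and gave the other 4 groups, namely wild type (MDA WT), SLUG KO, in which CRISPR was aimed at the start of SNAI2 (the gene for the transcription factor SLUG) and colonies were grown from single cells, and wild-type cells transfected with scramble siRNA (Csi) or with siRNAs against SMAD2, SMAD3 and SMAD4 (siSMAD). Which clone or clones gave the SLUG KO libraries was not given in the sources used here, and each of the other lines is a single established line. No group carried an interferon treatment or a reporter. Chromatin accessibility samples of the same series were not analysed here. In bulk RNA of this kind, fewer cells expressing a gene and less RNA per cell cannot be told apart.

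The libraries held between 14124688 and 38406952 counted fragments. Replicates within 7 of the groups correlated at r = 0.984 or above over genes, while MDA WT replicate 2 stood apart, with r of 0.957 and 0.952 to replicates 1 and 3, which correlated with each other at 0.989. Among the 3 MDA WT libraries, replicate 2 was the lowest for 27 of the 39 genes and the highest for 10. For each comparison that uses MDA WT, the calls among the 39 genes are therefore counted with and without replicate 2. Other values rest on all 3 libraries unless stated. Leukocyte markers were near 0 in all libraries for 6 of 8 genes, with PTPRC reaching at most 0.580 CPM, which is counts scaled to a common library size, whereas CD14 (96.7 to 194 CPM in spheres and 2.37 to 10.7 CPM in MDA-MB-231) and CSF1R (1.12 to 4.43 CPM and 3.62 to 10.4 CPM) were detected in all groups. In the spheres the summed level of 9 mammary epithelial markers was 3207 to 5814 CPM, and in the MDA-MB-231 libraries it was 938 to 1679 CPM, with KRT5 at 0 counts in MDA WT. The summed level of 4 mesenchymal markers was 56.3 to 294 CPM in spheres and 876 to 4117 CPM in MDA-MB-231. The targeted genes were measured as well. HRAS mRNA was higher in MII Ctrl than MI Ctrl by 2.45 on the log2 scale, and SMAD2, SMAD3 and SMAD4 fell by 1.92, 0.69 and 1.72 in siSMAD against Csi. SNAI2 mRNA was 30.2, 20.9 and 33.7 CPM in the MDA WT libraries and 63.5, 57.7 and 64.3 CPM in the libraries labelled SLUG KO, a log2 fold-change of 1.10 ± 0.22 (SE, adjusted p = 0.0443). The mRNA level was thus not reduced, and the edited sequence was not examined here. An mRNA level does not measure the protein, and the paper states that its knock-out clones were checked by ddPCR and immunoblotting.

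The element that ISGF3 binds can be read in the promoters of the genes themselves. The core of the interferon-stimulated response element, the letters GAAA followed by any 2 bases and GAAA again, was searched on both strands in the 250 bases before each annotated start in the RefSeq sequences of GRCh38.p14. On the opposite strand the same element reads TTTC, any 2 bases and TTTC. It occurred before 20 of the 31 genes that matched an entry (64.5%), against 1014 of 27305 genes in the same table (3.71%). A longer form, the same letters followed by CT, which contains the first, occurred before 13 of the 31 (41.9%), against 0.271% of all genes. IFIT2, IFITM2, IRF7, MX2, OAS2, OASL, USP18 and TRIM22 had no matching entry. Such a match is a description of the letters and does not show that a factor binds there. The sequences below are those of the 5 genes with the largest called differences among those whose window holds the element outside the gene's own exons, printed 5′ to 3′ on the gene's strand with each copy of the element in capitals and with any part inside the gene's exons left out. HERC5 (chr4:88456869-88457118, plus strand, the ligase that attaches ISG15 to proteins) held 3 copies, of which 2 overlap, from 125 to 74 bases before the start. IFIT1 (chr10:89392373-89392545, plus strand) and IFIT3 (chr10:89327747-89327940, plus strand), which encode proteins that bind foreign RNA, held 2 copies each. SAMD9 (chr7:93118024-93118229, minus strand), an antiviral and growth-restricting protein, held 1 copy, and BST2 (chr19:17405631-17405880, minus strand), the tetherin that holds budding virus at the cell surface, held 2 overlapping copies.

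HERC5: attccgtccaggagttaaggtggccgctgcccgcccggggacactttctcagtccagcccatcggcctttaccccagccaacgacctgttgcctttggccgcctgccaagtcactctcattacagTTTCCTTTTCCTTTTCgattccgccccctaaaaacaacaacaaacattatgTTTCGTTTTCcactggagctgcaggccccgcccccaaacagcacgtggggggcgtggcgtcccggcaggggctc
IFIT1: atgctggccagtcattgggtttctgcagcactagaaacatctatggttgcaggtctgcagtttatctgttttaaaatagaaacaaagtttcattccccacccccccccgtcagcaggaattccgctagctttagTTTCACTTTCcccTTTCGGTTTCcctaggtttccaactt
IFIT3: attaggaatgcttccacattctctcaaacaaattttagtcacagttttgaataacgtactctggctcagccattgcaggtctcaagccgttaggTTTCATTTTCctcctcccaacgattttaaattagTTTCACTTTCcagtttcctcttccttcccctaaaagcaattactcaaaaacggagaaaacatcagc
SAMD9: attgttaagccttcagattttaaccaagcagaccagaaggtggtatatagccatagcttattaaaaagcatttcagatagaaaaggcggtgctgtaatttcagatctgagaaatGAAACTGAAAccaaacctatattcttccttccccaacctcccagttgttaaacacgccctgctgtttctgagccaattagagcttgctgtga
BST2: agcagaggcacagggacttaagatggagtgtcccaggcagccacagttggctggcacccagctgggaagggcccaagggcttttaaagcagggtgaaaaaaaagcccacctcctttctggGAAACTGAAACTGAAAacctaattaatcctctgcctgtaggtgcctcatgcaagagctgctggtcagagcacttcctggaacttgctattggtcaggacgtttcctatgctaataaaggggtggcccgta

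The 39 genes did not have a common level in any group. Summed over the 39, the level was 2303 ± 10.97 CPM in MI Ctrl and 2634 ± 65.4 in MII Ctrl (mean ± SD, n = 3), of which SAMD9 alone supplied 40.3% and 46.2%. Per kilobase of annotated exon, merged over all transcripts, SAMD9 was the highest of the 39 in MI Ctrl (135 CPM per kb). It was also the highest in MII Ctrl (178 CPM per kb). ISG15, the ubiquitin-like modifier, was the highest in MDA WT (114 CPM per kb) and siSMAD (164 CPM per kb). The merged length can exceed that of the transcript made, which lowers genes with many annotated exons. The order is therefore a rough one. At the other end, XAF1, a pro-apoptotic interferon target, was at 0 counts in all 6 MII libraries and at 12 counts in total over the 3 MI Ctrl libraries, and RSAD2, the radical-SAM enzyme viperin, was at 24 counts in total in MI Ctrl. A count of 0 in these libraries allows a level of up to 0.204 CPM (3 counts in the MII library with the highest such limit), for counting error only. The plot of levels across the 24 libraries shows a block of genes that was low in the spheres and high in MDA-MB-231, and a smaller block with the opposite pattern. The genes that belong to each are described below.

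**Figure D1:**
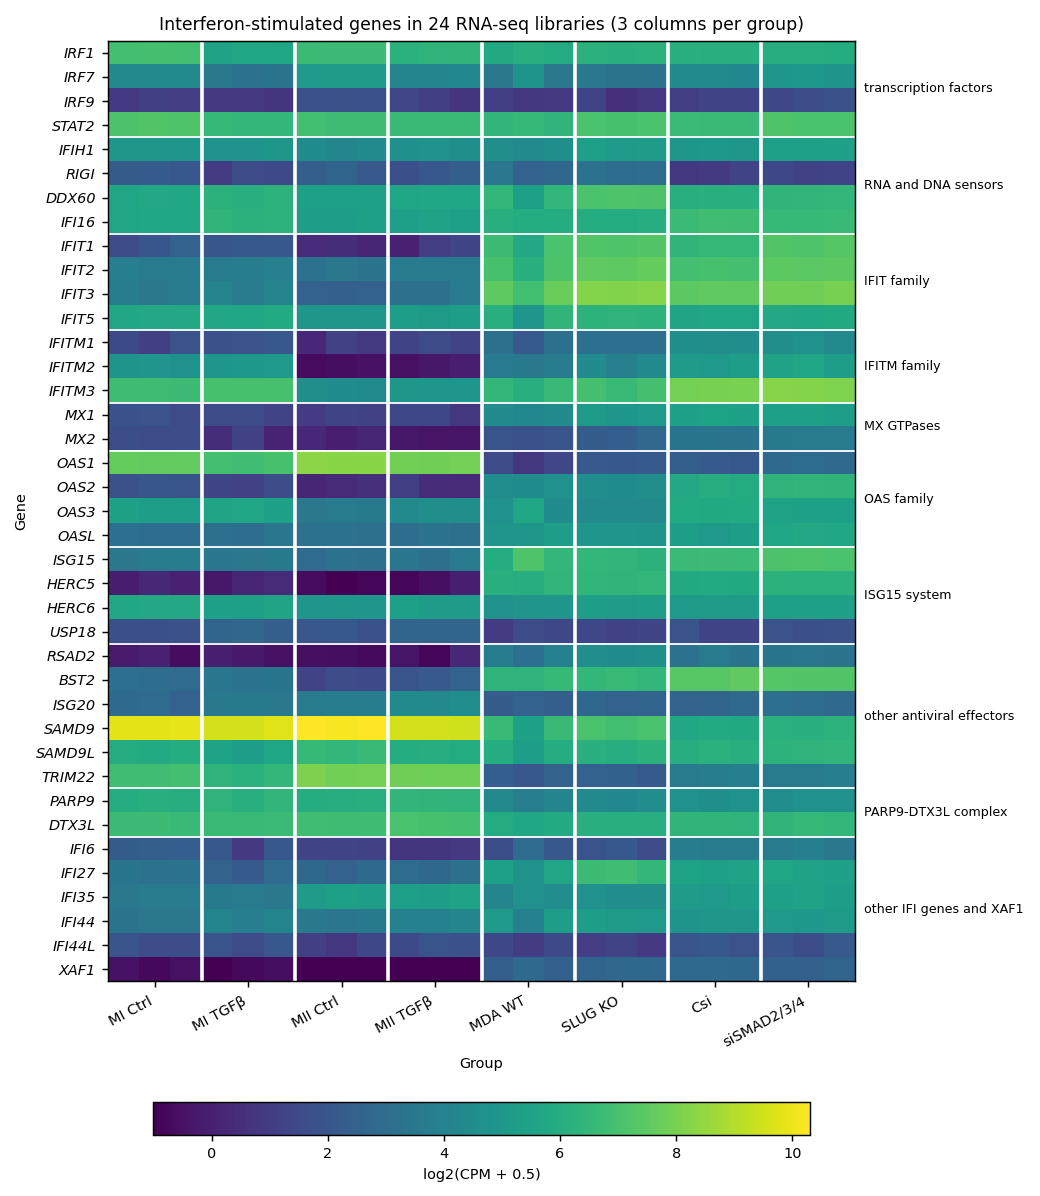
Heatmap of the level of the 39 genes (rows, ordered by role) in the 24 libraries (columns, grouped), as log2(CPM + 0.5). HERC5, RSAD2 and XAF1 were near 0 in the 12 sphere libraries and present in the 12 MDA-MB-231 libraries, and OAS1, SAMD9 and TRIM22 were lower in MDA-MB-231 than in spheres.

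The first comparison asked how TGFβ changed these genes in the normal-like MI-spheres. More genes fell than rose, and the falls were in the transcription factors and in single antiviral genes, while none of the IFIT family passed the test. Of the 37 genes with enough counts to be tested (RSAD2 and XAF1 were too low), 15 were lower (40.5%) and 7 were higher (18.9%) at an adjusted p under 0.05, against 27.4% lower and 28.7% higher among all 16863 genes tested. The median log2 fold-change of the 37 was -0.14, against -0.02 over all genes. A log2 fold-change beyond 1 in size was reached by 4 of the genes, all lower, where 9.89% of all genes tested passed that rule as lower and 3.61% as higher. Over all 39, the stimulated libraries lay wholly above the controls for 10 and wholly below for 15, against 37.0% and 25.7% of genes tested. The epithelial marker sum moved with the treatment, from 3207 to 3287 CPM in MI Ctrl to 5373 to 5814 CPM in MI TGFβ. The mesenchymal sum moved as well, from 56.3 to 62.0 CPM to 263 to 294 CPM. Within these lists KRT18 (0.03), CDH1 (-0.03) and ZEB1 (0.45) were not called, and the other markers were higher. The part of these markers in the result was not tested.

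Among the 4 transcription factors, 3 were lower and none was higher. IRF1, an early activator of interferon targets, was at 119.6, 124 and 120.8 CPM in MI Ctrl and at 45.5, 52.8 and 53.4 CPM after stimulation, with a log2 fold-change of -1.34 ± 0.06 (SE, adjusted p = 1.01e-14). IRF7, which amplifies type I interferon production, went from 19.6, 19.4 and 20.8 CPM to 10.97, 9.13 and 9.66 CPM (-1.09 ± 0.10, adjusted p = 1.37e-09). All 3 stimulated libraries lay below all 3 controls for both genes. The exons of IRF1 overlap an antisense gene over 22.9% of their bases, and the counting did not use strand. STAT2, a component of ISGF3, was lower by a smaller amount (-0.78 ± 0.05), and IRF9 did not pass the test (-0.39 ± 0.27, adjusted p = 0.225). For IRF9, 42.2% of the exonic bases overlap another annotated gene on the same strand, where reads that fit both genes were dropped from the counts.

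The other genes past the log2 limit were a sensor and a GTPase. RIGI, a cytoplasmic sensor of viral RNA, was at 4.55, 4.38 and 3.74 CPM in MI Ctrl and 1.48, 2.60 and 2.30 CPM with TGFβ (-1.06 ± 0.20, adjusted p = 0.000104). MX2, a GTPase that restricts viruses, was at 2.74, 2.45 and 2.70 CPM and at 0.878, 1.75 and 0.553 CPM (-1.39 ± 0.30, adjusted p = 0.000423). The groups did not overlap for either gene, although both rest on low levels and 43.2% of the exonic bases of RIGI overlap another gene. OAS1, which makes the second messenger that switches on RNase L, fell by 0.75 ± 0.05, and IFI27, a mitochondrial protein, fell by 0.80 ± 0.15. HERC6, SAMD9, SAMD9L and TRIM22 were lower by 0.33 to 0.60 on the log2 scale. The 7 higher genes were USP18, which removes ISG15 from proteins and dampens interferon signalling (0.84 ± 0.16), ISG20, an exonuclease (0.70 ± 0.12), the DNA sensor IFI16 (0.53 ± 0.06), IFI44 (0.53 ± 0.10), the helicase DDX60 (0.37 ± 0.06), PARP9 (0.18 ± 0.06) and the membrane protein IFITM3 (0.16 ± 0.05). None of the 4 IFIT genes passed the test, with log2 fold-changes from -0.11 to 0.22. Leaving out 1 library at a time, or using another setting, ended the call for IFIH1, DTX3L, IFI6, OAS2, PARP9 or IFITM3 under at least 1 alternative.

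In the HRAS-transformed MII-spheres the same stimulation moved more genes up than down. Of the 34 genes tested there (HERC5, IFITM2, MX2, RSAD2 and XAF1 were too low), 15 were higher (44.1%) and 9 were lower (26.5%), against 30.0% and 27.7% of all 16396 genes tested, and the median log2 fold-change was 0.25 against -0.02. Over all 39, the groups lay apart with TGFβ higher for 16 and lower for 10, against 34.3% and 27.4% of genes tested. The transcription factors were again lower, this time all 4 of them. IRF7 went from 33.4, 37.5 and 36.0 CPM in MII Ctrl to 17.2, 17.3 and 18.9 CPM with TGFβ (-1.05 ± 0.08, adjusted p = 4.84e-20), and it was the only one of the 34 with a log2 fold-change beyond 1, where 7.5% of all genes tested passed as lower and 3.11% as higher. Its stimulated libraries all lay below the controls. IRF9 fell by 0.90 ± 0.24, IRF1 fell by 0.45 ± 0.05 and STAT2 fell by 0.20 ± 0.04. In MII-spheres the epithelial marker sum was 3318 to 3339 CPM without and 5095 to 5379 CPM with TGFβ. The mesenchymal sum was 140.3 to 146 CPM and 163 to 177 CPM. Within these lists KRT18 (0.07), FN1 (0.09) and ZEB1 (0.15) were not called, and the other markers were higher. The part of these markers in the result was not tested.

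None of the 15 higher genes was a transcription factor of the list. OAS3, a relative of OAS1 that responds to long double-stranded RNA, rose by 0.95 ± 0.09, from 10.8, 11.9 and 11.3 CPM to 21.0, 23.4 and 23.2 CPM, with no overlap. IFIT3 rose by 0.87 ± 0.14, BST2 by 0.83 ± 0.21 and IFI44L by 0.78 ± 0.25, all from low levels. Of the 4 IFIT genes 3 were higher (IFIT1, IFIT3 and IFIT5), and the PARP9 and DTX3L genes, which encode a complex that modifies histones, were both higher (0.32 ± 0.05 and 0.15 ± 0.04). SAMD9, with the highest CPM of the 39 in spheres, fell by 0.76 ± 0.03, from 1234, 1160.0 and 1258 CPM to 753, 747 and 718 CPM, with no overlap. SAMD9L, OAS1, TRIM22 and IFI6 were lower by 0.59, 0.45, 0.20 and 0.68. IFIT1 and IFI6 lost their calls under 9 alternatives each.

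MI- and MII-sphere comparisons share no library, so their calls can be set side by side. Both had 6 higher genes in common (DDX60, IFI44, IFITM3, ISG20, PARP9 and USP18), which is 85.7% of those higher in MI and 40.0% of those higher in MII. In common among the lower genes were 8 (IFI6, IRF1, IRF7, OAS1, SAMD9, SAMD9L, STAT2 and TRIM22), or 53.3% and 88.9%. These stand beside 44.1% higher and 26.5% lower of the 34 genes tested in MII. In MI the shares were 18.9% and 40.5% of 37. The overlap of calls over all genes was not computed, so whether it is particular to these genes was not tested. DTX3L, HERC6 and IFIH1, the sensor MDA5, were lower in MI and higher in MII, and no gene went the other way. The difference between both responses was tested directly, as the line-by-treatment interaction over the 12 sphere libraries. Of 37 genes tested, 13 had a response that was higher in MII than in MI (35.1%) and 2 lower (5.41%), against 12.7% and 9.85% of 18591 genes, and the median difference was 0.37 against 0.00 for all genes. IFI27 had a difference of 1.06 ± 0.21 (adjusted p = 7.96e-05), the only called one beyond 1, where 3.74% of all genes passed as higher and 2.16% as lower. Its level went from 10.1, 8.76 and 9.29 CPM to 5.49, 4.30 and 7.32 CPM in MI and from 6.28, 5.45 and 6.71 CPM to 7.23, 6.46 and 8.49 CPM in MII. The groups did not overlap in MI and overlapped in MII. IRF1 (0.90 ± 0.08), OAS3 (0.83 ± 0.11), HERC6 (0.72 ± 0.09), IFIT3 (0.66 ± 0.19) and STAT2 (0.58 ± 0.07) followed, and IFI16 (-0.49 ± 0.09) and SAMD9 (-0.42 ± 0.07) had the opposite sign. IRF7 did not pass this test (0.06 ± 0.12, adjusted p = 0.797).

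**Figure D2:**
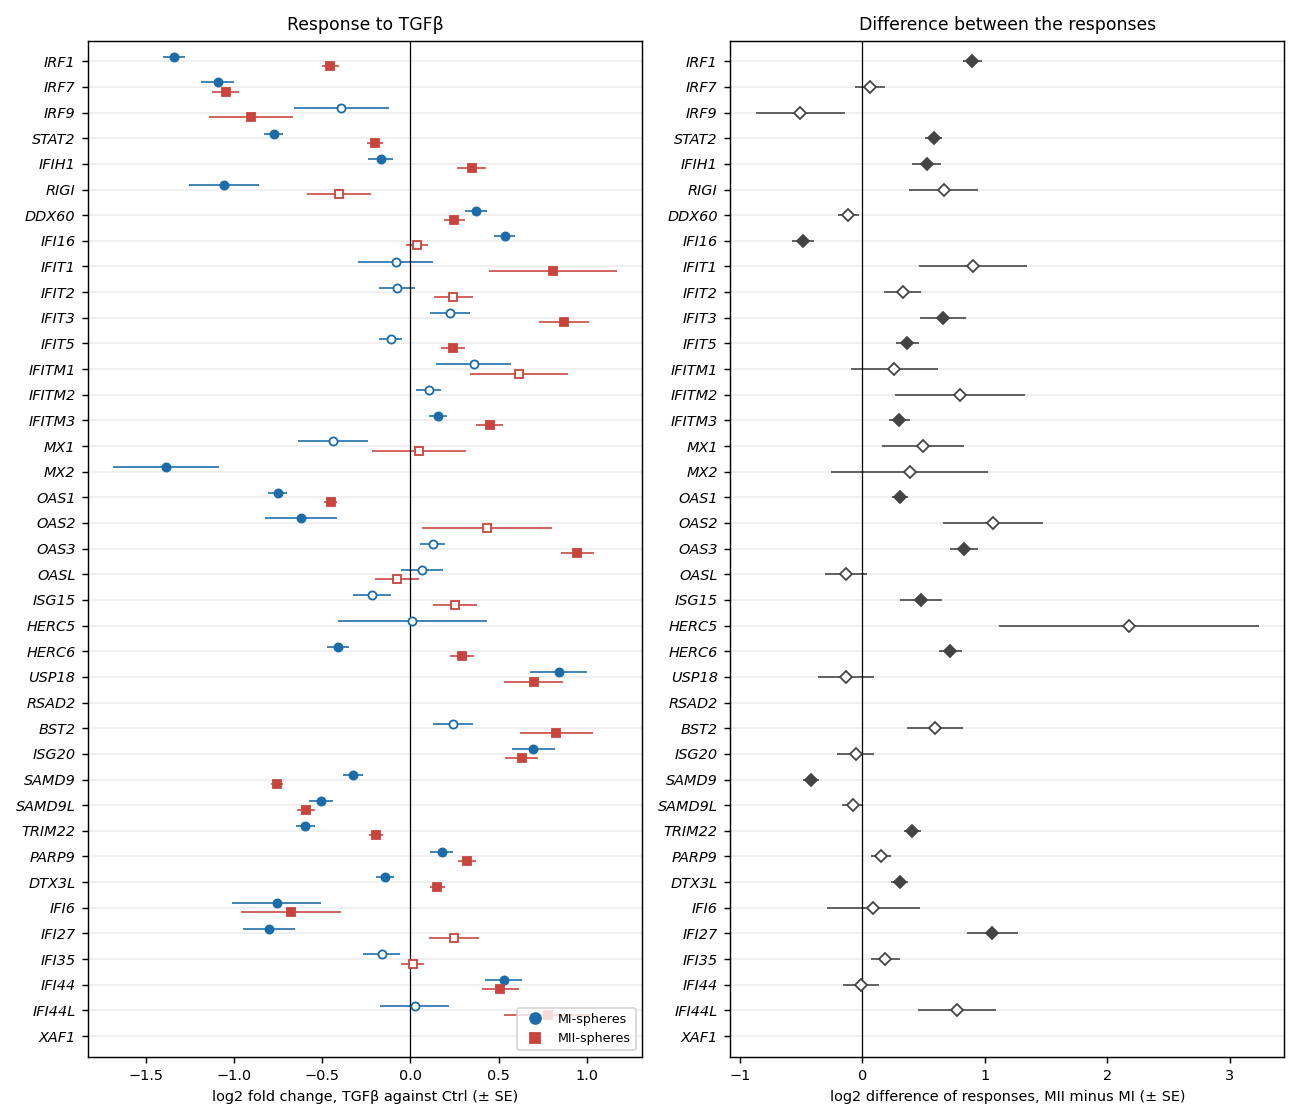
Log2 fold-change ± SE of TGFβ against Ctrl (left) in MI-spheres (blue circles) and MII-spheres (red squares), and the difference of the responses, MII minus MI (right), for the genes tested. Filled points have an edgeR adjusted p under 0.05 and open points do not. IRF1 was lower in both lines and more so in MI (-1.34 against -0.45), and IRF7 was lower by a similar size in both (-1.09 and -1.05).

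Other genes of the pathway were read from a list of 94, which holds ligands, receptors, kinases, sensors, inhibitors and further targets. With TGFβ, 29 of the 65 tested were lower and 11 higher in MI-spheres, against 27.4% and 28.7% of all genes. In MII-spheres 9 of 63 were lower and 20 higher, against 27.7% and 30.0%, so that the higher count was near the share of all genes. For the difference of responses, 23 of 65 were higher in MII and 2 lower, against 12.7% and 9.85%. SOCS1, the inhibitor that blocks JAK kinases, fell by 2.75 ± 0.20 in MI and by 2.22 ± 0.17 in MII, and the related SOCS3 fell by 1.20 ± 0.12 and by 0.56 ± 0.09. In MI-spheres 6 of 8 tested targets of interferon-gamma type were lower and none was higher, beside the same 27.4% and 28.7% of all genes. The GTPase gene GBP4 was lower by 2.85 ± 0.48 and IDO1, which breaks down tryptophan, by 2.65 ± 0.49, both from about 1 CPM, and the kinase gene IKBKE, which acts downstream of the sensors, was lower by 1.33 ± 0.08. The responses of GBP4 (2.75 ± 0.67), IDO1 (2.11 ± 0.66) and IKBKE (1.38 ± 0.12) were higher in MII than in MI. TYK2, the receptor kinase, fell by 0.71 ± 0.06 in MI.

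Interferon genes themselves were nearly silent. Of 21 ligand genes, 9 were at 0 counts in every library, and 20 were under 1 CPM everywhere. The interferon-alpha genes are near-identical copies and the counting kept only well-placed reads, so their counts are uncertain. IFNE, an epithelial interferon, was the exception. Its level was 0.617, 0.770 and 0.830 CPM in MI Ctrl and 4.89, 5.31 and 4.49 CPM in MII Ctrl, a difference of 2.76 ± 0.23 (adjusted p = 7.59e-19). With TGFβ it went to 1.96, 1.47 and 1.70 CPM in MII (-1.56 ± 0.21, adjusted p = 8.69e-10), and it was at 0 counts in the MDA WT and SLUG KO libraries. The MII Ctrl libraries were above every other library.

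The second comparison set untreated MII-spheres against untreated MI-spheres, the difference between the HRAS-transformed and normal-like line. It shares control libraries with both TGFβ comparisons. More of the genes were lower than higher in MII, among them the IFIT, IFITM and MX genes. Of 36 genes tested (HERC5, RSAD2 and XAF1 were too low), 22 were lower (61.1%) and 9 higher (25.0%), against 32.6% and 31.8% of all 17862 genes, and the median log2 fold-change was -0.36 against 0.02. A log2 fold-change beyond 1 was reached by 9 lower and 3 higher genes, rules that 7.62% and 12.5% of all genes passed. The MII libraries lay wholly above MI for 11 of the 39 and wholly below for 23, against 33.0% and 34.6% of genes tested. The IFIT, IFITM and MX genes, 9 in all, were lower without exception. The mammary epithelial marker sum was 3207 to 3287 CPM in MI Ctrl and 3318 to 3339 CPM in MII Ctrl. Its genes moved both ways. TP63 (-6.42), KRT6A (-4.87), KRT5 (-2.49) and KRT17 (-1.95) were lower in MII. KRT14 (2.42), EPCAM (1.59), KRT8 (1.12), KRT18 (0.66) and CDH1 (0.11) were higher. Of the other cell type lists, the sum of 4 fibroblast markers was 12.4 to 13.4 CPM in MI Ctrl and 0.111 to 0.301 CPM in MII Ctrl. The mesenchymal sum was 56.3 to 62.0 CPM and 140.3 to 146 CPM, and that of 8 leukocyte markers, nearly all CD14, was 101.3 to 107.96 CPM and 191 to 196 CPM, and their part was not tested.

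The IFITM genes encode small membrane proteins that block the entry of enveloped viruses, and they lie side by side on chromosome 11. IFITM2 (chr11:303655-309397, plus strand) was at 28.6, 28.8 and 27.0 CPM in MI Ctrl and at 0.132, 0.167 and 0.222 CPM in MII Ctrl, the latter resting on 11 counts in all, a log2 fold-change of -7.28 ± 0.18 (adjusted p = 2.42e-53). IFITM3 (chr11:319676-329475, minus strand) was at 109.9, 109.6 and 105.4 CPM in MI Ctrl and at 23.2, 21.7 and 19.9 CPM in MII Ctrl (-2.32 ± 0.06, adjusted p = 6.62e-55). IFITM1 (chr11:310041-315272, plus strand) was low in both lines and lower in MII (-0.82 ± 0.26), with 1 library of each group overlapping. The MI and MII values of IFITM2 and IFITM3 stood fully apart, and TGFβ left IFITM2 at 0.203 to 0.475 CPM in MII. The coding sequences of IFITM2 and IFITM3 are 93.3% identical, against 66.2% and 67.3% for IFITM1 with each, so reads of one may be lost or misplaced to the other. Genes within 100 kb of IFITM2, looked at after this value was seen, had smaller log2 fold-changes, with PSMD13 at -0.43, PGGHG at -0.42, RIC8A at -0.22, PKP3 at -0.74 and SIGIRR at 0.67, while BET1L (0.06), SIRT3 (-0.20) and B4GALNT4 (-0.12) did not pass the test.

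**Figure D3:**
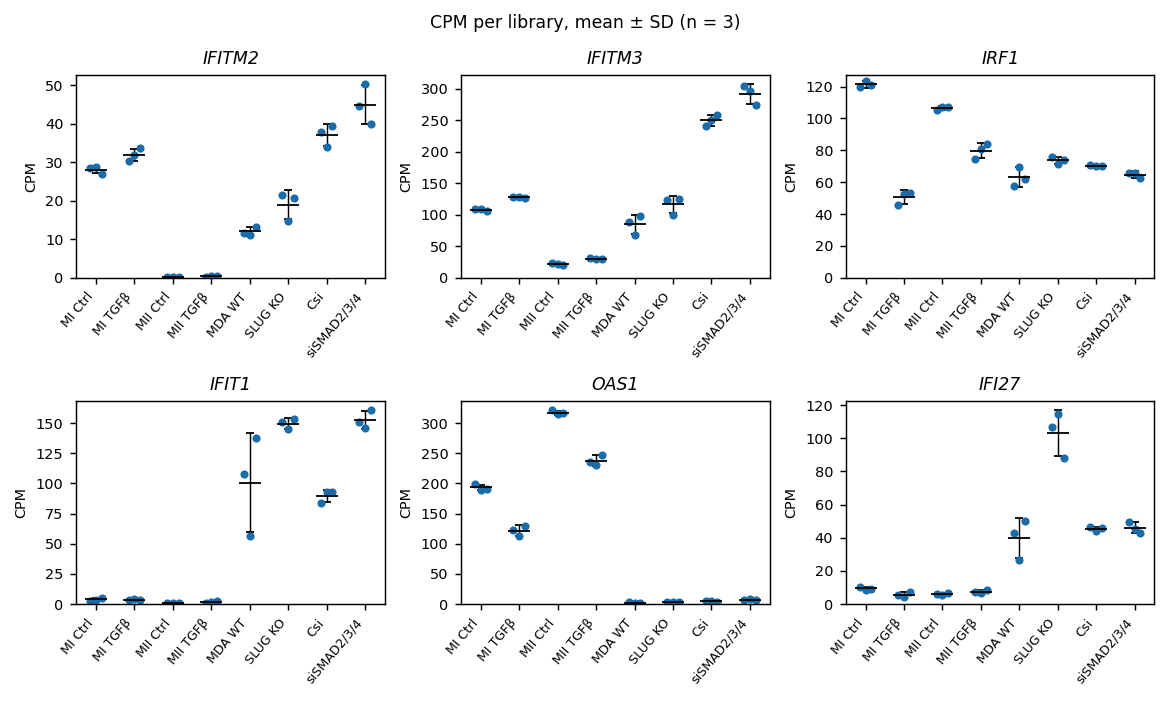
Level in CPM of IFITM2, IFITM3, IRF1, IFIT1, OAS1 and IFI27 in each library (points) with the mean ± SD (n = 3) of the 8 groups. IFITM2 was near 0 in all 6 MII libraries (at most 0.475 CPM), IRF1 fell with TGFβ in both sphere lines, OAS1 was 1.28 to 7.55 CPM in MDA-MB-231, and IFI27 was 88.2 to 115 CPM in the libraries labelled SLUG KO.

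The other genes with large differences fell in several families. IFIT1 was at 2.51, 3.51 and 5.35 CPM in MI and at 0.794, 0.903 and 0.610 CPM in MII (-2.22 ± 0.26, adjusted p = 7e-12), and IFIT3 was at 13.0, 10.5 and 12.04 CPM and at 5.29, 4.95 and 5.38 CPM (-1.19 ± 0.12). MX2 went from 2.74, 2.45 and 2.70 CPM to 0.728, 0.468 and 0.610 CPM (-2.17 ± 0.29). None of these groups overlapped. In the OAS family the genes split. OAS2 was at 2.97, 3.61 and 3.27 CPM in MI and 0.661, 0.769 and 0.943 CPM in MII (-2.03 ± 0.26), and OAS3 was at 43.5, 39.8 and 39.4 CPM and 10.8, 11.9 and 11.3 CPM (-1.83 ± 0.08). OAS1, in contrast, was higher in MII (0.73 ± 0.04), at 321, 315 and 317 CPM against 199, 189.7 and 191 CPM in MI.

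BST2 and IFI6 were lower as well. BST2 was at 8.21, 8.09 and 7.16 CPM in MI and 1.98, 2.51 and 2.27 CPM in MII (-1.75 ± 0.16), and IFI6, an endoplasmic reticulum protein, was at 4.59, 4.91 and 4.62 CPM and 1.98, 1.97 and 1.83 CPM (-1.27 ± 0.19). Both differences were larger than the spread within groups. The 3 genes higher by more than 1 were IFI35, at 11.1, 12.5 and 12.4 CPM in MI and 37.9, 42.0 and 39.9 CPM in MII (1.76 ± 0.08, adjusted p = 7.27e-37), TRIM22, a ubiquitin ligase (1.12 ± 0.04), and ISG20 (1.02 ± 0.11). SAMD9 (0.40 ± 0.03) and SAMD9L (0.62 ± 0.05) were higher, IRF7 (0.86 ± 0.07) and IRF9 (0.98 ± 0.22) were higher, and IRF1 (-0.18 ± 0.04) and STAT2 (-0.34 ± 0.04) were lower. Of the 94 other pathway genes, 28 of 65 tested were lower and 21 higher, against 32.6% and 31.8% of all genes. IFNGR1, a receptor chain for interferon-gamma, was lower by 2.22 ± 0.04, MAVS, the adaptor of the RNA sensors, by 1.12 ± 0.04, and the interferon target EPSTI1 by 4.32 ± 0.30. Among the higher genes were IFNE, given above, UBE2L6, which passes ISG15 to its ligases (1.46 ± 0.11), and the cytidine deaminase APOBEC3G, which had 1 count in all in MI Ctrl and 10, 16 and 14 counts in the MII Ctrl libraries. Of 11 tested sensor-signalling genes 9 were lower and 2 higher, beside the same shares of all genes.

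The third comparison set MDA WT against MI Ctrl. Cell line and culture format (monolayer or sphere) change together here and cannot be told apart. The MI Ctrl libraries are shared with the comparisons above. Some of the 39 genes were higher by more than an order of magnitude and others lower by as much. All 39 were tested, 15 were higher (38.5%) and 9 lower (23.1%), against 27.7% and 25.6% of all 18732 genes, with a median log2 fold-change of 0.10 against 0.06. Beyond a log2 fold-change of 1 were 14 higher and 5 lower genes, rules passed by 23.3% and 21.0% of all genes. MDA WT lay wholly above MI for 18 and wholly below for 14, against 33.1% and 33.7% of genes tested. Without MDA WT replicate 2 the counts were 19 higher and 16 lower, against 36.6% and 38.3% of all genes, with 15 and 7 beyond 1, against 22.7% and 23.9%. The count of lower genes thus changed with that library, and no called gene changed direction without it.

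The largest rise was in HERC5, which was at 0.424, 0.722 and 0.519 CPM in MI Ctrl (36 counts in all) and at 72.1, 65.5 and 85.0 CPM in MDA WT (7.06 ± 0.28, adjusted p = 6.04e-06). RSAD2 went from 0.386, 0.529 and 0.156 CPM to 13.0, 8.11 and 15.2 CPM (5.04 ± 0.45), and XAF1 from 0.231, 0.0963 and 0.208 CPM to 4.84, 6.79 and 4.95 CPM (4.89 ± 0.37). These genes were almost undetected in spheres and present in each MDA WT library. The exons of XAF1 overlap an antisense gene over 38.3% of their bases. The counting did not use strand, and reads that fit both genes were dropped from the counts.

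Within the IFIT family 3 of 4 were higher. IFIT1 was at 108.3, 56.2 and 138 CPM in MDA WT against 2.51, 3.51 and 5.35 CPM in MI (4.74 ± 0.46), IFIT2 at 130.3, 70.6 and 142 CPM against 13.8, 12.6 and 12.4 CPM (3.14 ± 0.30), and IFIT3 at 183, 118 and 207 CPM against 13.0, 10.5 and 12.04 CPM (3.83 ± 0.27). Replicate 2 was the lowest of the MDA WT libraries for all 3 and still lay above all of MI. IFIT5 did not pass the test (0.10 ± 0.35), and without replicate 2 it was higher by 0.40 ± 0.08. BST2 was at 80.9, 80.1 and 95.0 CPM against 8.21, 8.09 and 7.16 CPM (3.44 ± 0.19). ISG15 (3.06 ± 0.33), OAS2 (2.83 ± 0.19), MX1 (2.79 ± 0.20), IFI27 (2.07 ± 0.27), OASL (2.04 ± 0.19), IFITM1 (1.51 ± 0.38) and IFI44 (1.51 ± 0.35) were also higher.

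In the opposite direction, OAS1 was at 2.59, 1.28 and 2.17 CPM in MDA WT against 199, 189.7 and 191 CPM in MI, a log2 fold-change of -6.58 ± 0.32 (adjusted p = 1.03e-05). TRIM22 was at 4.73, 3.64 and 5.51 CPM against 114, 114 and 118.9 CPM (-4.65 ± 0.23), and SAMD9 at 97.4, 43.4 and 99.8 CPM against 922, 921 and 941 CPM (-3.54 ± 0.35). The libraries of both lines were far apart for all 3. PARP9 (-1.98 ± 0.19) and IFITM2 (-1.23 ± 0.17) completed the lower genes beyond 1, and IRF1, STAT2, HERC6 and DTX3L were lower by 0.75 to 0.97. Within the OAS family OAS1 was therefore lower in MDA WT while OAS2 and OASL were higher, and OAS3 did not pass the test (-0.31 ± 0.33), falling by 0.81 ± 0.10 without replicate 2. Of 69 other pathway genes tested, 18 were higher and 22 lower, against 27.7% and 25.6% of all genes.

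**Figure D4:**
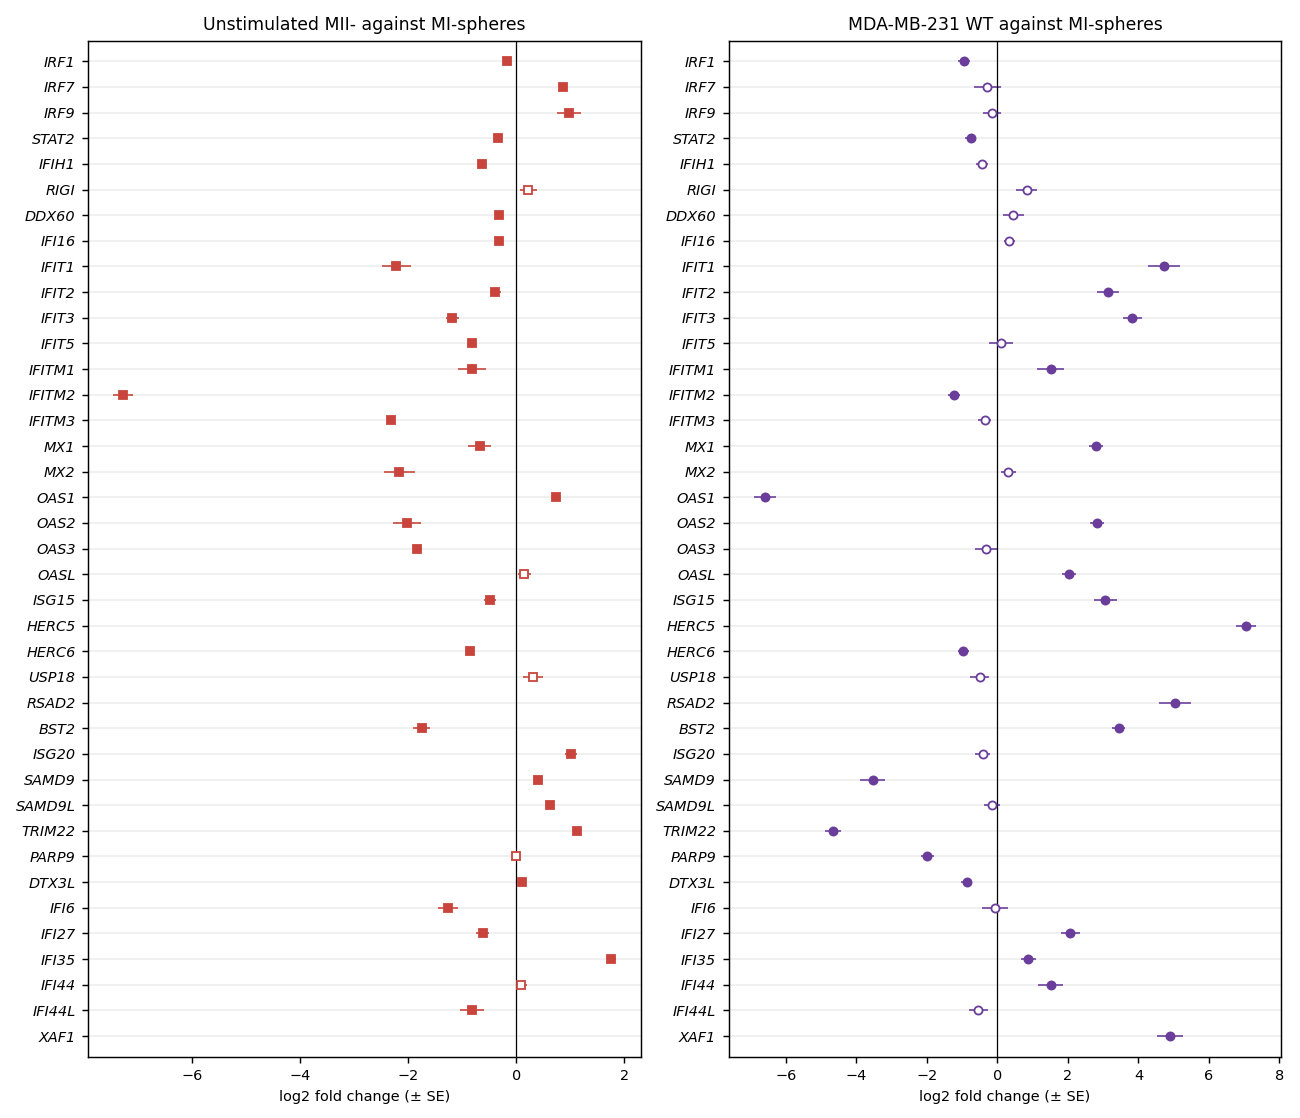
Log2 fold-change ± SE of untreated MII-spheres (left) and of MDA WT (right), each against untreated MI-spheres. Filled points have an edgeR adjusted p under 0.05 and open points do not, and both panels use the same MI Ctrl libraries. IFITM2 had the largest fall on the left (-7.28), and HERC5 (7.06) and OAS1 (-6.58) had the largest differences on the right.

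The fourth comparison set the libraries labelled SLUG KO against MDA WT, which are shared with the comparison above. SLUG is a repressor of epithelial genes. With all libraries, 1 of the 39 genes tested was higher (2.56%) and 0 were lower, against 1.34% higher and 1.8% lower of all 17428 genes tested, and the median log2 fold-change was 0.23 against -0.05. At an unadjusted p under 0.05 in edgeR, 12 of the 39 were higher and 0 lower, against 7.83% and 10.8% of all genes. DESeq2 called 5 higher and 0 lower, against 2.43% and 2.89% of the genes it tested. All 3 SLUG KO libraries lay above all 3 MDA WT libraries for 19 of the 39 (48.7%), against 16.5% of genes tested, and below them for 1 (2.56%), against 14.5%. The mesenchymal marker sum was 1609 to 1677 CPM in MDA WT and 876 to 963 CPM in SLUG KO. In that list only FN1 was lower (-3.17 ± 0.24), while VIM (-0.12), ZEB1 (0.04) and CDH2 (0.93) were not called. The part of these markers in the result was not tested.

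The called gene was IFI27, at 42.7, 26.4 and 50.2 CPM in MDA WT and 106.99, 115 and 88.2 CPM in SLUG KO (1.35 ± 0.27, adjusted p = 0.0452), a log2 fold-change beyond 1, which 1.2% of all genes passed as higher and 1.75% as lower. The groups did not overlap. The call was lost under 7 alternatives, with an adjusted p of up to 0.219. The MDA WT libraries had the lowest correlations between replicates of the 8 groups. Without replicate 2, 16 of the 39 were higher and 0 lower, against 17.0% and 14.3% of all 17909 genes, with a median of 0.18 against -0.01, and 17 were higher and 2 lower at an unadjusted p under 0.05, against 21.5% and 19.1%. In that fit IFI27 was at 1.14 ± 0.11 (adjusted p = 5.53e-07), the only one beyond 1, where 3.34% of all genes passed as higher and 4.03% as lower. The 16 were IFIT1, IFIT2, IFIT3, IFITM2, IFITM3, HERC6, MX1, MX2, OAS1, DDX60, IFIH1, IFI27, RSAD2, SAMD9, IRF1 and STAT2. OAS1 rose there by 0.71, RSAD2 by 0.70, STAT2 by 0.67 and IFIH1 by 0.65. Without MDA WT replicate 1 or replicate 3, no gene was called in either direction, and at an unadjusted p under 0.05 the counts were 10 higher and 0 lower without replicate 1, against 6.42% and 10.3% of all genes, and 12 higher and 2 lower without replicate 3, against 7.96% and 15.1%. Of the other pathway genes IFNLR1, the receptor chain of interferon-lambda, was lower (-2.21 ± 0.29, adjusted p = 0.0111), at 4.77, 5.63 and 3.74 CPM in MDA WT and 1.11, 0.776 and 1.22 CPM in SLUG KO. Without replicate 2, 26 of 69 tested were higher and 6 lower, against 17.0% and 14.3% of all genes.

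The last comparison set siSMAD against Csi in MDA-MB-231 cells. It asked how these genes differed after siRNAs against the SMAD mediators of TGFβ signalling, whose mRNAs were lowered but still present. It shares no library with the others. No untransfected library carried the same batch label, and an effect of the siRNAs themselves on these genes was not tested. More genes rose than fell, by small amounts with little spread. All 39 were tested, 22 were higher (56.4%) and 5 lower (12.8%), against 16.3% and 19.8% of all 17696 genes, and the median log2 fold-change was 0.25 against 0.00. The siSMAD libraries lay wholly above Csi for 24 and wholly below for 6, against 21.7% and 22.7% of genes tested. None had a log2 fold-change beyond 1, a size at which 0.966% of all genes were higher and 0.932% lower. The largest in size was 0.76. The epithelial marker sum was 1364 to 1413 CPM in Csi and 1606 to 1679 CPM in siSMAD, and the mesenchymal sum 3461 to 3583 CPM and 3806 to 4117 CPM. Both lists were mixed. KRT14 (1.29), KRT8 (0.23) and KRT18 (0.27) were higher, and CDH1 (-0.30) and EPCAM (-0.35) were lower. FN1 (0.25) was higher, and VIM (-0.04), ZEB1 (-0.06) and CDH2 (0.43) were not called. The part of these markers in the result was not tested.

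IFIT1 had the largest difference, at 83.8, 92.6 and 92.9 CPM in Csi and 151, 146 and 161 CPM in siSMAD (0.76 ± 0.05, adjusted p = 4.78e-17). OAS1 was at 4.79, 4.29 and 3.80 CPM and 6.80, 7.55 and 6.96 CPM (0.73 ± 0.13), and IRF7 at 20.8, 20.7 and 18.8 CPM and 29.9, 32.4 and 28.6 CPM (0.59 ± 0.07). For each of these the siSMAD libraries were all above the Csi libraries. All 4 IFIT genes were higher (0.16 to 0.76), as were IRF9 (0.53 ± 0.19), STAT2 (0.45 ± 0.04), OASL (0.50 ± 0.06), OAS2 (0.45 ± 0.05), ISG15 (0.42 ± 0.04), IFIH1 (0.44 ± 0.06), SAMD9 (0.39 ± 0.05) and HERC5 (0.34 ± 0.05). The 5 lower genes were OAS3 (-0.43 ± 0.05, adjusted p = 5.93e-09), XAF1 (-0.33 ± 0.12), IFI16 (-0.20 ± 0.04), BST2 (-0.15 ± 0.05) and IRF1 (-0.13 ± 0.05). OAS3 thus moved against OAS1, OAS2 and OASL. MX1, RSAD2, IFI6, IFI27 and IFI44L did not pass the test, with log2 fold-changes from -0.10 to 0.01.

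The files name a second flow cell for siSMAD replicates 1 and 2 that the other libraries of this comparison do not name. With flow cell as a term in the fit, the term absorbs these libraries, and the difference rests on siSMAD replicate 3 alone against Csi. The log2 fold-change was then 0.84 for IFIT1, 0.71 for OAS1, 0.51 for IRF7 and -0.48 for OAS3. That difference is taken within the flow cell that siSMAD replicate 3 shares with Csi in the file names. It rests on a single treated library, so only its size is given. The part of flow cell was not tested further. Of the 15 genes lower with TGFβ in MI-spheres, 9 were higher in siSMAD (60.0%) and 1, IRF1, was lower, beside 56.4% higher among the 39. Of the 94 other pathway genes, 16 of 69 tested were higher and 12 lower, against 16.3% and 19.8% of all genes. The largest difference among them was in the cytidine deaminase APOBEC3B, at 20.4, 19.2 and 20.2 CPM in Csi and 5.66, 5.42 and 5.29 CPM in siSMAD (-1.87 ± 0.09, adjusted p = 9.88e-20), and its groups did not overlap.

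**Figure D5:**
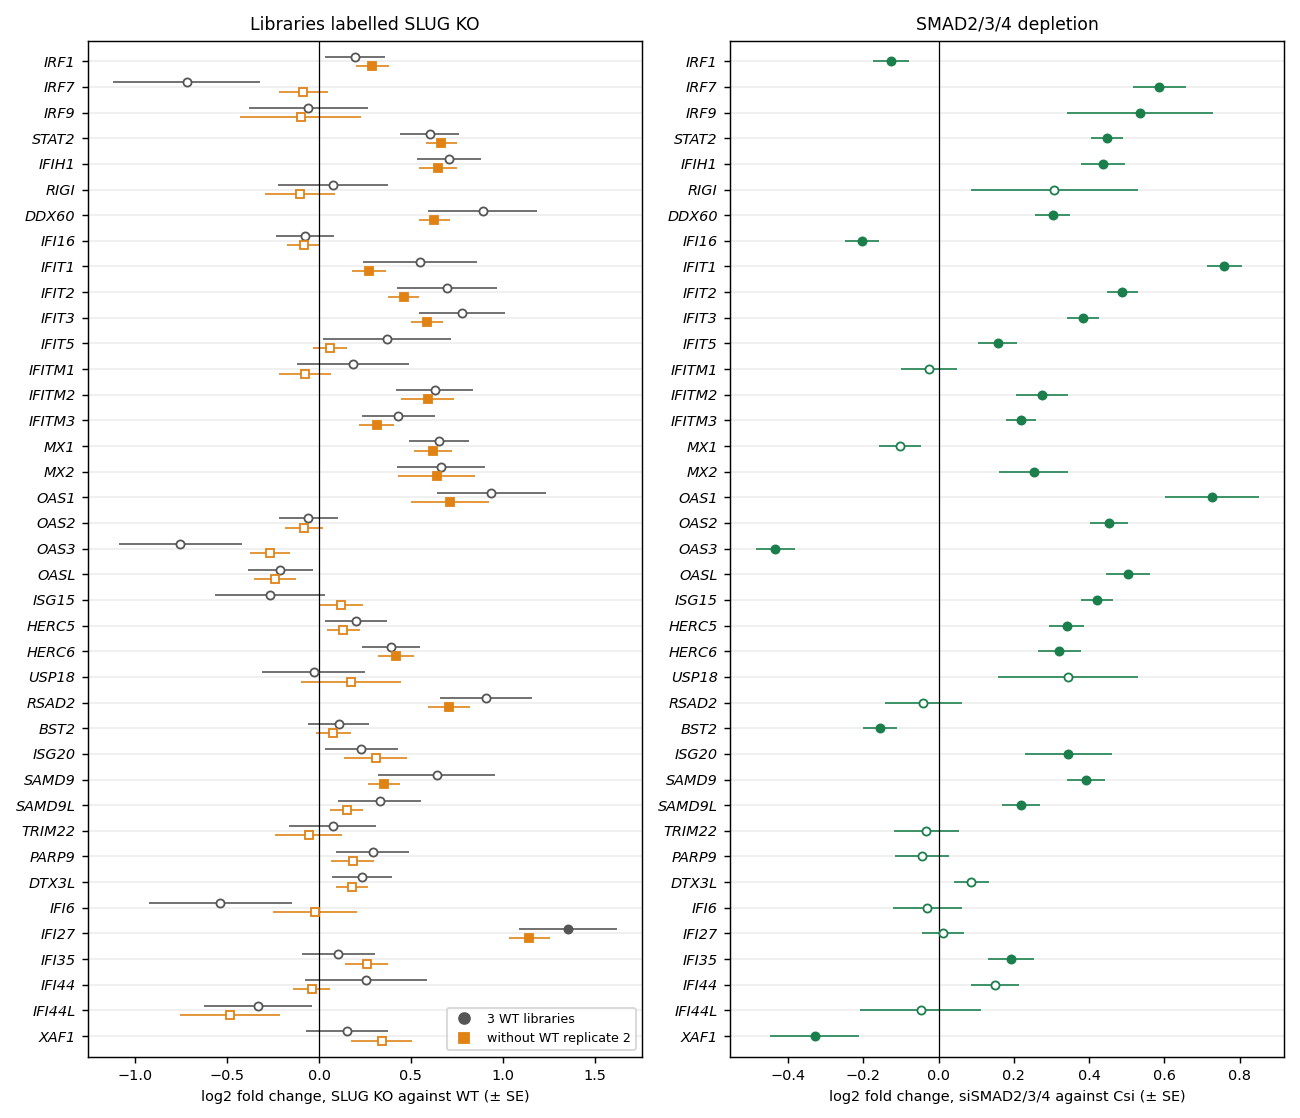
Log2 fold-change ± SE in MDA-MB-231: the libraries labelled SLUG KO against MDA WT with all 3 MDA WT libraries (grey) and without MDA WT replicate 2 (orange) on the left, and siSMAD against Csi on the right. Filled points have an edgeR adjusted p under 0.05 and open points do not. On the left the SEs shrank without replicate 2 and 16 genes were called higher, against 1 with it, and on the right 22 were higher and 5 lower.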

How the data were processed

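RNA from 24 libraries in 8 groups of 3 was sequenced by the authors after ribosomal RNA removal with a stranded kit, trimmed with Trimmomatic, aligned with STAR and counted per gene with featureCounts 2.0.0 (GENCODE 38, mapping quality of at least 30, both ends mapped, strand not used). The deposited values are raw counts per gene. Gene symbols were taken from GENCODE 44. Genes were kept with the edgeR default filter, scaled by TMM and tested with the quasi-likelihood test of edgeR 4.0.16 in R 4.3.3 (limma 3.58.1), with p-values adjusted by Benjamini-Hochberg across the tested genes. Each comparison used its own libraries, and the interaction used the 12 sphere libraries. A call is an adjusted p under 0.05, and a larger call also needs a log2 fold-change beyond 1. CPM values are counts divided by the TMM-scaled library size over the 24 libraries, on the usual CPM scale, and the heatmap adds 0.5. SE is the log2 fold-change divided by the root of the F statistic. With 3 libraries a group, an exact permutation test has a smallest p of 0.1, so p-values come from edgeR. Beyond the label of biological replicate, nothing says whether cultures were separate, so p-values measure the spread between these libraries. DESeq2 1.42.0 and further settings were alternatives. Fits were tested on simulated data. The siRNA libraries carry another batch label than the other 18, and no test crosses the batches. The members and the lists were chosen with earlier results of these data known. Values in every library are given for the genes past both limits, at most the 10 with the largest differences per comparison. They are also given for single genes outside that rule. Among these are OAS3 and SAMD9 with TGFβ in MII-spheres, OAS1 in MII against MI, and IFIT1, OAS1 and IRF7 in siSMAD. The other genes are given by counts, ranges and single values. The 16 chromatin accessibility samples were not used here.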

Additional observations from a re-analysis of the deposited data

Results flagged for a closer look

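The response to TGFβ differed between MII- and MI-spheres for 15 of the 39 genes in the test of the interaction (edgeR, adjusted p under 0.05). The differences, MII minus MI on the log2 scale, were 0.90 for IRF1, 0.58 for STAT2, 0.52 for IFIH1, -0.49 for IFI16, 0.66 for IFIT3, 0.37 for IFIT5, 0.30 for IFITM3 and 0.31 for OAS1. They were 0.83 for OAS3, 0.48 for ISG15, 0.72 for HERC6, -0.42 for SAMD9, 0.41 for TRIM22, 0.30 for DTX3L and 1.06 for IFI27. No cause of these differences was tested.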

How the results depend on the processing

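Of the 39 genes' calls, those that held under every alternative were 16 of 22 for TGFβ in MI-spheres, 21 of 24 in MII-spheres, 13 of 15 for the interaction, 29 of 31 for MII against MI, 22 of 24 for MDA WT against MI, 0 of 1 for SLUG KO and 17 of 27 for siSMAD, and no call changed direction. For SLUG KO the count of 1 higher gene became 5 with DESeq2 and 0 with at least 10 counts in every library, and ranged from 0 to 16 when 1 library was left out, the 16 coming without MDA WT replicate 2 and 0 without any other single library. The count of lower genes in MDA WT against MI Ctrl was 9 with all libraries and ranged from 9 to 16, the 16 coming without MDA WT replicate 2. The 5 lower genes in siSMAD ranged from 3 to 4 with 1 library left out (3 without each Csi replicate and without siSMAD replicates 1 and 2). The fit with flow cell as a term rests on siSMAD replicate 3 alone, so no count is given for it. That fit is among the alternatives for the siSMAD calls above. The cause of these changes was not tested beyond the libraries left out.

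No pairing of the libraries by replicate number was visible, as the deviations of same-numbered libraries correlated at -0.123 to 0.051. Whether same-numbered cultures were set up together is not stated. With the replicate block the SLUG KO count was 0, and the other counts were 8 higher and 15 lower in MI-spheres, 15 and 9 in MII-spheres, 13 and 2 for the interaction, 9 and 22 for MII against MI, 15 and 9 for MDA WT against MI, and 22 and 5 for siSMAD. Genes with a few counts per library, such as XAF1 and RSAD2 in spheres, are limited by depth.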
